A study of Mus musculus with 18 samples.

Results

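The ribosomal protein pseudogenes described here are the 79 genes whose symbol is that of a ribosomal protein gene (Rpl or Rps) followed by -ps, with or without a number, and whose read counts summed to 50 or more over 18 libraries. The name alone was met by 319 of the 55141 genes of the count table, so the 79 were chosen by their summed counts in these same libraries. A gene with reads in a single group could pass this sum only through that group. Just inside the threshold stood Rpsa-ps12 (51 counts), Rpl7-ps8 (53 counts) and Rpl31-ps16 (53 counts), and just outside it Rps7-ps2 (49 counts), Rpl22-ps1 (48 counts) and Rps2-ps7 (42 counts). The name was borne out by the GENCODE M21 annotation for most members, of which 68 are processed pseudogenes and 5 transcribed processed pseudogenes, while 5 are annotated as protein coding and 1, Rps18-ps4, as a lincRNA.

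RNA came from mouse embryos whose head had been removed, in 6 groups of 3 libraries. At E9.5, wild type embryos stood beside embryos homozygous for Del(i9-13), a mutation of the HoxB cluster of homeobox genes. The E10.5 set comprised wild type, homozygous Del(i9-13), homozygous Del(i9-13):Hoxb13hd, which carries that mutation together with the hd change of Hoxb13, and homozygous Hoxb13hd alone. The labels do not spell out hd, do not name the strain, and do not say whether a library came from 1 embryo or several. A p-value here thus reflects only how these libraries vary, part of which may be technical. Xist, the RNA of the inactive X in females, differed widely between replicates in every group but E9.5 Del(i9-13). In E10.5 wild type, for example, it had 21, 14156 and 11 counts. Replicates of those groups were thus not all repeats of 1 sample. E9.5 Del(i9-13) had 31 to 43 counts of Xist, which cannot tell this. Mutant and wild type embryos were described as littermates, without saying which libraries shared a litter. Poly(A) enrichment was used at E9.5 and ribosomal RNA depletion at E10.5, so stage and library type cannot be told apart. Totals ran from 29.8 to 35.9 M counts at E9.5 and from 19.3 to 25.7 M at E10.5. Hoxb13 gave 130 to 1421 counts in the groups carrying Del(i9-13) and 0 to 25 in the others, and Gm53 gave 0 to 3 counts where the deletion was carried and 371 to 1076 elsewhere. All 6 trunk and tail markers were detected at both stages (summed level 177 to 340 CPM), against a summed 12.5 to 38.2 CPM for 5 head and forebrain markers, of which Six3 was at 0 at E10.5. Markers of yolk sac, which could remain on an embryo, ran from 24.6 to 1278 summed CPM between libraries, and their part in any result below was not tested.

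Ribosomal proteins are the protein parts of the ribosome, named Rpl for the large subunit and Rps for the small one. Their messenger RNAs are among the most abundant in a cell, and in mammals many have been copied back into the genome by reverse transcription. Such processed pseudogenes lack introns, sit far from the parent gene and can be nearly identical to its messenger RNA. Short reads from such a stretch match parent and copy alike.

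Reads were spread very unevenly over the 79 members. Together they held 282688 counts, 53.2% of them in a single member, Rpsa-ps10. Only 12 members reached 1000 counts over the 18 libraries, and 34 stayed under 100. By mean level, in CPM (counts scaled to library size, not corrected for gene length), the order was Rpsa-ps10 (320 CPM), Rps18-ps6 (81.6 CPM), Rpl3-ps1 (22.6 CPM), Rpl15-ps6 (20.9 CPM), Rps15a-ps6 (19.3 CPM), Rps7-ps3 (18.7 CPM), Rpl14-ps1 (18.4 CPM), Rps26-ps1 (17.4 CPM), Rpl15-ps2 (15.1 CPM) and Rps15a-ps8 (13.9 CPM), followed by Rps2-ps10 (8.91 CPM) and Rpl10a-ps1 (2.60 CPM). The order is one of means: 8 of the 12 ranged 10-fold or more within a group. The other 67 members averaged 0.0984 to 2.08 CPM each and held 5.48% of the members' counts. All 79 together lie on 20 chromosomes, with 5 members on the X, and derive by name from 42 parent genes.

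Sequence set the members close to their parents. Aligned to the coding sequence of the parent, 78 members covered 50% or more of it, with a median identity of 98.9% and a range of 92.2% to 100%. An open frame as long as the parent's, or at most a codon shorter, was found in 38 of the 79. Members whose alignment did not begin at the parent's start codon were not assessed and are not among the 38. Cut into windows of 50 bases, the median member had 67.3% of its windows present letter for letter in another annotated transcript. A read of that length falling there cannot be placed by sequence alone. Windows of 100 bases were shared less in some members, as in Rpl18-ps2 (27.4% against 61.4% at 50 bases), while Rps16-ps2 stayed at 100%. A gene on the same strand overlapped 12 members and a gene on the opposite strand 17.

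**Figure D1:**
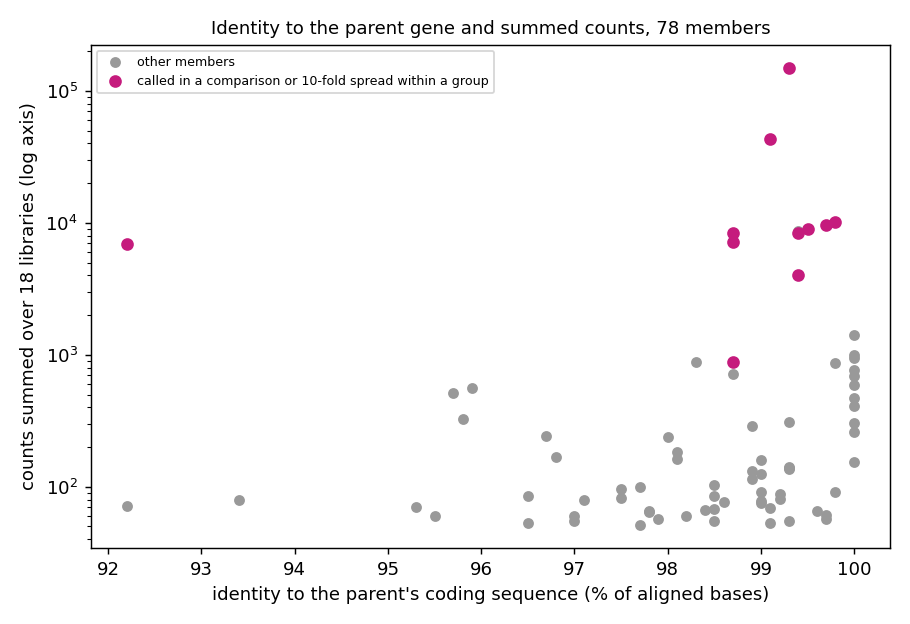
Identity of each of 78 members to the coding sequence of its parent (horizontal, percent of aligned bases) against its counts summed over 18 libraries (vertical, log axis). The 11 members that were called in a comparison or spread 10-fold within a group (magenta) lie between 92.2% and 99.8% identity and all but Rps15a-ps5 (890 counts) hold over 1000 counts.

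Differences between genotypes were tested on the counts with edgeR's quasi-likelihood test, fitted over all genes, and a gene was called where its Benjamini-Hochberg adjusted p was at most 0.05. The filter on low counts was passed by 44 of the 79 members at E9.5 and 25 at E10.5. A member could pass through its high group alone, so the counts below describe those tested and not the family. At E9.5, 1 of 44 members was called between Del(i9-13) and wild type, as lower, where 0.362% of all genes tested were called (0.0935% as higher, 0.268% as lower). At E10.5, 4 of 25 members were called higher in Del(i9-13) than in wild type (all genes 0.488%, higher 0.244%), 3 higher in Del(i9-13):Hoxb13hd (all genes 0.401%, higher 0.192%, lower 0.209%) and 3 higher in Hoxb13hd (all genes 3.01%, higher 1.42%, lower 1.59%). These 3 comparisons share the wild type libraries. Median log2 differences of the members tested were small, at 0.19 at E9.5 and -0.09, -0.06 and 0.00 in the same order at E10.5, beside 0.00 over all genes in each. What was called was a handful of members with very large differences.

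**Figure D2:**
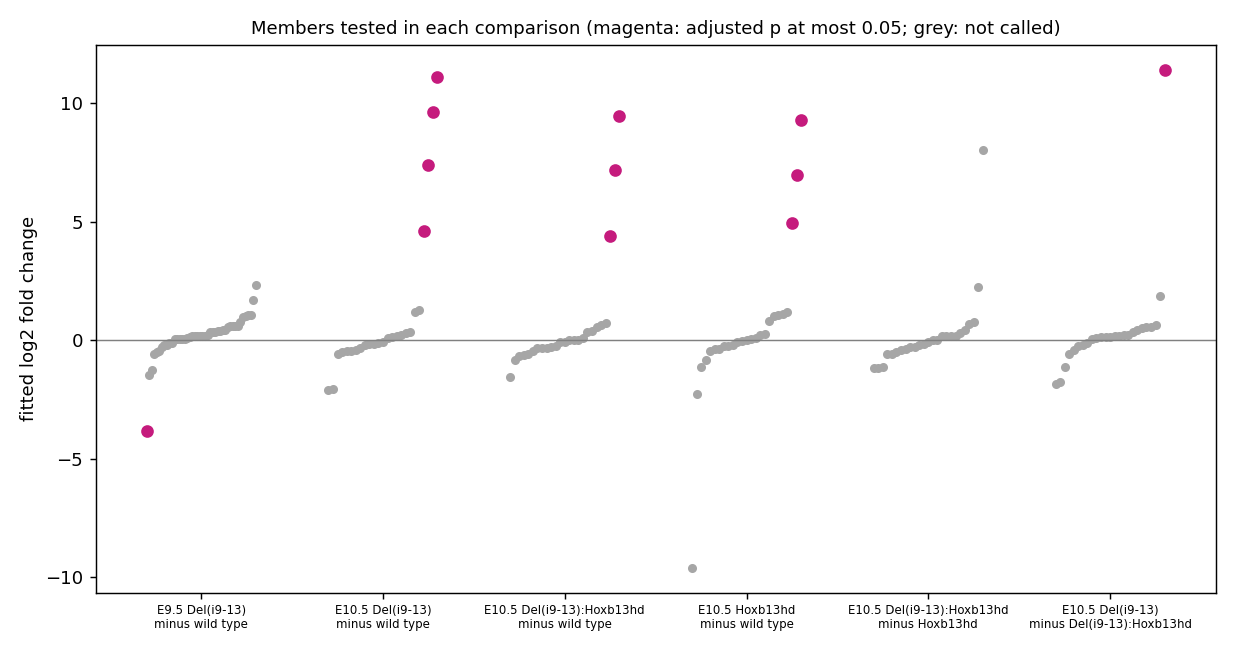
Fitted log2 fold change (vertical) of each member tested in 6 comparisons (horizontal), magenta where the adjusted p was at most 0.05. Called members stand far from the others, from 4.41 to 11.4 at E10.5 and at -3.84 at E9.5, and an uncalled member, Rps2-ps10, lies at -9.60 in Hoxb13hd minus wild type.

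Copies of Rps15a, which encodes a protein of the small ribosomal subunit, supplied 3 of the 4 members called at E10.5. They are Rps15a-ps8 (chr4:53791070-53791456, minus strand), Rps15a-ps6 (chr11:6172644-6173036, minus strand, inside Nudcd3 on the same strand) and Rps15a-ps5 (chr5:105797321-105797713, minus strand, inside Lrrc8d on the opposite strand), with coordinates on mm10 as deposited. All 3 are processed pseudogenes. Rps15a-ps8 is 92.2% identical to the parent with 30 mismatches and has no 100-base window in another transcript, whereas Rps15a-ps6 and Rps15a-ps5 carry 5 mismatches each (98.7% identity), with 16.0% and 13.6% of such windows shared. The same stretch of coding sequence, positions 45 to 164 counted from the start codon, shows this difference in the GENCODE M21 transcripts, with bases that differ from the parent in capitals.
Rps15a: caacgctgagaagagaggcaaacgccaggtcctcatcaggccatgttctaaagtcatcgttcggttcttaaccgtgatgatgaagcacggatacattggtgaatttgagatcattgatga
Rps15a-ps8: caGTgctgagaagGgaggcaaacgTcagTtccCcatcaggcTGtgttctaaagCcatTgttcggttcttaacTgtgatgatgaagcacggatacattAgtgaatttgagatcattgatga
Rps15a-ps6: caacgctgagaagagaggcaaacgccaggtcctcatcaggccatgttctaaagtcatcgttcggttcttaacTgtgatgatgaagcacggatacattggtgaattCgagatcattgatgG
Rps15a-ps5: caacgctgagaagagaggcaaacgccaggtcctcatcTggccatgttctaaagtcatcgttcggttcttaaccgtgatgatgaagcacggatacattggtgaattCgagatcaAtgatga
In this stretch Rps15a-ps8 has 12 differences from the parent and the other two 3 each. The change C117T occurs in both Rps15a-ps8 and Rps15a-ps6, and T150C in both Rps15a-ps6 and Rps15a-ps5, with the parent's base first and positions counted from the first base of the coding sequence.

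All 3 copies were nearly silent in E10.5 wild type and in no other group. In the 3 E10.5 wild type libraries Rps15a-ps8 had 1, 0 and 0 counts. It had 333, 402 and 377 in Del(i9-13). The Del(i9-13):Hoxb13hd libraries gave 325, 388 and 302, those of Hoxb13hd 263, 383 and 129. At E9.5 it had 896, 373 and 794 counts in wild type and 811, 366 and 737 in Del(i9-13). The wild type libraries of E10.5 stood below every other library, while those of E9.5 overlapped with Del(i9-13). Rps15a-ps6 followed with 5, 7 and 3 counts in E10.5 wild type, 706, 939 and 1001 in Del(i9-13), 743, 914 and 625 in Del(i9-13):Hoxb13hd and 657, 773 and 335 in Hoxb13hd. At E9.5 it gave 284, 206 and 307 counts in wild type and 371, 255 and 293 in Del(i9-13), again overlapping. Rps15a-ps5 was lower throughout, with 2, 4 and 2 counts in E10.5 wild type and 47 to 102 in the other 9 libraries of that stage, and 32 to 52 at E9.5. Thus 1 group of 6 lacked the reads, and wild type of the other stage had them.

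Against E10.5 wild type, Rps15a-ps8 was higher by a log2 fold change of 9.63 (SE 0.60) in Del(i9-13), 9.48 (SE 0.61) in Del(i9-13):Hoxb13hd and 9.29 (SE 0.61) in Hoxb13hd, with edgeR adjusted p of 6.44e-06, 2.12e-05 and 1.03e-05. The group sums were 1112 counts in Del(i9-13) and 1 in wild type, a ratio of 1103 with an exact 95% counting interval of 198 to 43621. Rps15a-ps6 was higher by 7.41 (SE 0.40), 7.17 (SE 0.40) and 7.0 (SE 0.40) on the log2 scale in the same order, with a ratio of group sums of 175 (106 to 313) in Del(i9-13). Rps15a-ps5 was higher by 4.60 (SE 0.41), 4.41 (SE 0.42) and 4.97 (SE 0.41), with a ratio of 25.4 (12.7 to 59.7) in Del(i9-13). Intervals of such ratios cover counting error only. Each SE is the log2 change divided by the square root of the test's F statistic, not a separately estimated error. For Rps15a-ps8 it is narrower than the counting interval. Adjusted p for these 2 members ran from 3.83e-06 to 2.56e-04 in edgeR's test.

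Between the 3 mutant groups of E10.5 the copies did not separate: none of the 3 was called in Del(i9-13):Hoxb13hd minus Hoxb13hd or in Del(i9-13) minus Del(i9-13):Hoxb13hd. The interaction term, which asks whether the deletion effect differed with and without hd, was called lower for all 3, at -9.44 (SE 0.72) for Rps15a-ps8, -7.24 (SE 0.48) for Rps15a-ps6 and -5.17 (SE 0.51) for Rps15a-ps5 (edgeR, adjusted p 3.34e-05, 1.12e-05 and 1.56e-04). No other member was called there, where 0.523% of all genes were called, 0.25% in this direction and 0.273% as higher. The difference of the deletion effect between stages was likewise called higher for these 3 of 46 members tested, at 9.83 (SE 0.84), 7.24 (SE 0.35) and 4.59 (SE 0.48), where 8 of 17670 genes (0.0453%, all higher) were called. Both terms rest on the same 3 low wild type libraries.

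The 2 tables of the study did not give the same picture for this trio. In the authors' FPKM (fragments scaled to gene length and library size), Rps15a-ps8 had 0.086, 0 and 0 in E10.5 wild type and 12 to 33.9 in the other 9 E10.5 libraries, as in the counts. Rps15a-ps6 had 0.154 to 0.386 FPKM in E10.5 wild type and 0.167 to 0.665 in the other libraries of that stage, so the groups overlapped. Rps15a-ps5 had 0.0772 to 0.169 FPKM in wild type and 0 to 0.41 elsewhere at E10.5. On log2(FPKM + 0.1) without a filter, limma left Rps15a-ps6 at 1.12 (adjusted p 0.419) and Rps15a-ps5 at -0.02 (adjusted p 1.0) in Del(i9-13) minus wild type. Rps15a-ps8 stayed called under each alternative run, with adjusted p of at most 0.0451. These 2 copies are each 98.7% identical to the parent, where the median over the members was 98.9%. The sources used here do not say how either table assigned reads that match several places. Why the tables differ for these copies was not tested.

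**Figure D3:**
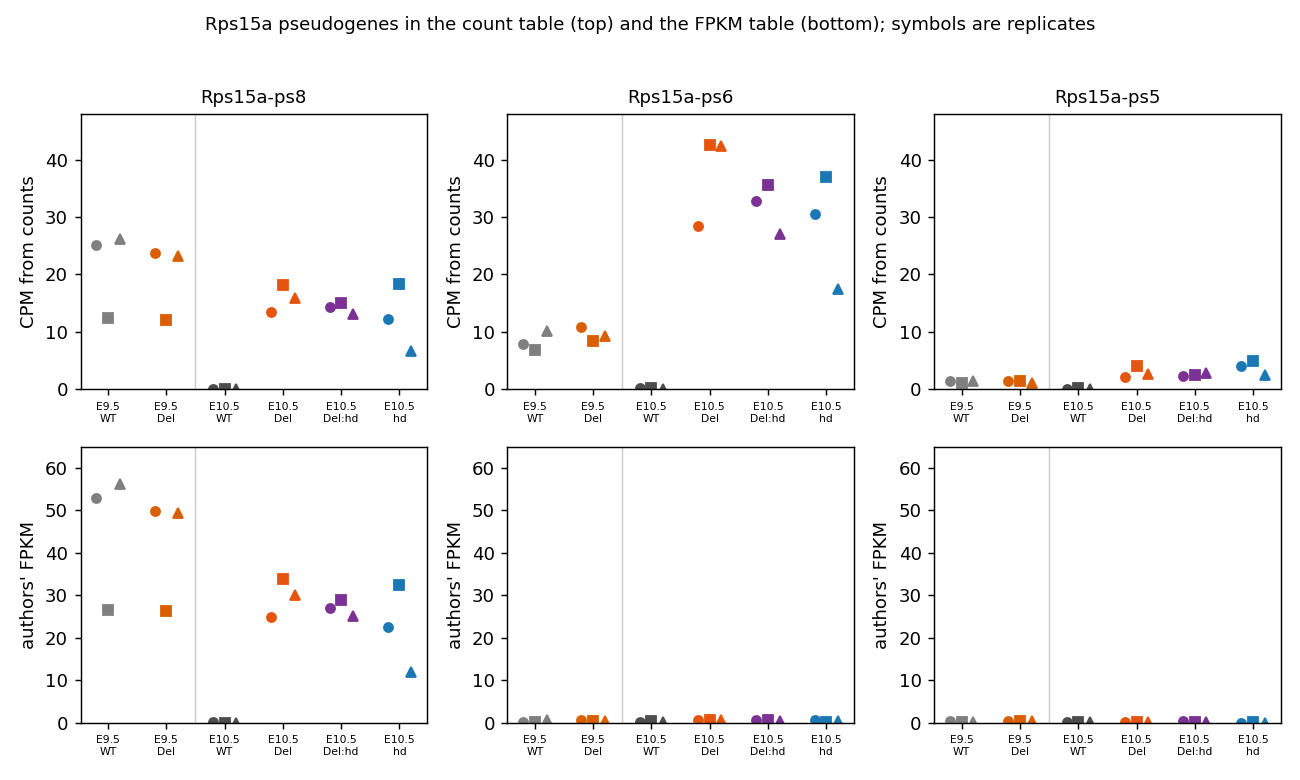
Levels of the 3 Rps15a pseudogenes in 18 libraries, as CPM from the counts (top) and as the authors' FPKM (bottom), with groups on the horizontal axis and 1 symbol per library. Rps15a-ps8 is near 0 in E10.5 wild type in both tables, while Rps15a-ps6 and Rps15a-ps5 show the difference in the counts and stay under 1 FPKM in all libraries.

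The parent Rps15a ran from 388 to 604 CPM at E10.5 and was not called in any comparison. Its E10.5 wild type libraries held 586, 604 and 516 CPM, and its 9 mutant libraries 388 to 565. Summed with its 6 member copies it ran from 431 to 630 CPM, with a coefficient of variation over the 12 libraries of 12.5% in place of 15.0% for the parent alone. Its other copies, Rps15a-ps3, Rps15a-ps4 and Rps15a-ps7, had group means of 0.0839 to 0.332 CPM and no such pattern. Over the 12 E10.5 libraries, the genes most correlated with Rps15a-ps8 on log2 CPM were Rps15a-ps6 (Pearson r 0.997), Rps15a-ps5 (0.979) and Mrpl27-ps (0.973), a pseudogene of a mitochondrial ribosomal protein. Mrpl27-ps had 37, 34 and 31 counts in E10.5 wild type and 51 to 79 in the other 9 libraries. Of genes tested within 1 Mb of the copies, none was called in Del(i9-13) minus wild type (8, 33 and 12 genes around Rps15a-ps8, Rps15a-ps6 and Rps15a-ps5), and in Hoxb13hd minus wild type 2 of the 33 around Rps15a-ps6 were called, Tbrg4 and Xbp1.

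Rps18-ps6 was the remaining member called at E10.5, and its reads appeared in a different set of libraries. It is a copy of Rps18, another small subunit gene (chr13:97760072-97760632, minus strand), annotated as protein coding in M21, with 4 mismatches in the coding sequence (99.1% identity) and a frame as long as the parent's 152 codons. The lincRNA Rps18-ps4 overlaps it on the opposite strand. Positions 312 to 431 of the coding sequence hold 3 of the 4 differences, in capitals.
Rps18: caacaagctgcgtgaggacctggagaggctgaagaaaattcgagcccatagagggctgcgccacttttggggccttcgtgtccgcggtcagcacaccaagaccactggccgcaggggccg
Rps18-ps6: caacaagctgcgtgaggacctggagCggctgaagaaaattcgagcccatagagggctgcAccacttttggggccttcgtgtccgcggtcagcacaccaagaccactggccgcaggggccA
The substitutions are A337C, G371A and G431A, with T186C outside the stretch. At the other bases a read from the copy and a read from the parent are the same.

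At E10.5, Rps18-ps6 had 2448, 6297 and 3020 counts in Del(i9-13), against 4, 0 and 1 in wild type, 3, 1 and 0 in Del(i9-13):Hoxb13hd and 5, 3 and 0 in Hoxb13hd. All 3 Del(i9-13) libraries were high and the other 9 at 5 counts or fewer. At E9.5 wild type had 5687, 4485 and 21 counts and Del(i9-13) 10772, 5484 and 4761. There wild type was split, with replicate 3 far below the rest, so the genotype groups overlapped. The E10.5 difference was a log2 fold change of 11.1 (SE 0.74) in Del(i9-13) minus wild type and 11.4 (SE 0.76) in Del(i9-13) minus Del(i9-13):Hoxb13hd (edgeR adjusted p 1.33e-04 and 1.16e-04). In the latter comparison it was the only member of 25 called, where 0.907% of all genes and 0.36% as higher were called. Group sums of 11765 and 5 counts gave a ratio to wild type of 2335 (exact 95% counting interval 1000 to 7192). FPKM showed the same, with 126, 367 and 166 in E10.5 Del(i9-13) and at most 0.297 in the other 9 libraries. For this member edgeR called neither the interaction term (log2 -12.2, SE 3.12, adjusted p 0.174) nor the difference between stages (log2 10.1, SE 2.82, adjusted p 0.473). Alternatives did call them. The interaction had an adjusted p of 2.65e-10 with DESeq2, 3.47e-06 to 9.56e-05 with limma on FPKM, 0.007 with Xist as a covariate and 0.0132 without Del(i9-13) replicate 2. The difference between stages had 2.28e-04 with DESeq2 and 0.0207 without E9.5 wild type replicate 3.

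As a share of the counts of Rps18 and Rps18-ps6 together, the pseudogene took 17.3%, 37.9% and 17.8% in the E10.5 Del(i9-13) libraries. At E9.5 it took 21.2%, 21% and 0.0857% in wild type and 45.0%, 21.2% and 21.1% in Del(i9-13). The shares thus lay near 0, between 17.3 and 21.2%, or at 37.9 and 45.0%. The 95% Wilson interval, which covers counting error only, was 37.2 to 38.7% for the 37.9%. Rps18 itself was lower where the copy was higher: in E9.5 Del(i9-13) replicate 1 it held 383 CPM and in wild type replicate 3, where the copy had 0.693 CPM, 808 CPM. Added up, Rps18 and its 4 member copies varied less than Rps18 alone, with a coefficient of variation of 8.42% against 23.5% at E9.5 and 11.1% against 17.4% at E10.5. Rps18 was called among any difference of the 4 E10.5 genotypes (edgeR adjusted p 0.0416, where 4.39% of all genes were called) and fell short in Del(i9-13) minus wild type (log2 -0.42, SE 0.11, adjusted p 0.177).

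Rps18-ps4, the lincRNA on the other strand, had 12, 13 and 0 counts in E9.5 wild type, 28, 20 and 5 in Del(i9-13), 11, 16 and 3 in E10.5 Del(i9-13) and 0 in each of the other 9 libraries. Its reads appeared only in libraries where Rps18-ps6 had 2448 or more counts, and the sources used here do not say whether counting used strand. Over the 12 E10.5 libraries the genes most correlated with Rps18-ps6 were Gm10503 on chromosome 17 (r 0.987), with 156, 278 and 152 counts in Del(i9-13) and 0 or 1 elsewhere, Glo1-ps on chromosome 2 (r 0.965), with 123, 287 and 136 counts and at most 3 elsewhere, and Emp1 on chromosome 6 (r 0.944), with 714 to 795 counts and 334 to 472 elsewhere. For Gm10503 and Glo1-ps, Del(i9-13) replicate 2 was the highest library, as it was for Rps18-ps6. Around Rps18-ps6, 0 of 13 genes tested within 1 Mb were called in Del(i9-13) minus wild type and 1, Gm4815, in Del(i9-13) minus Del(i9-13):Hoxb13hd.

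**Figure D4:**
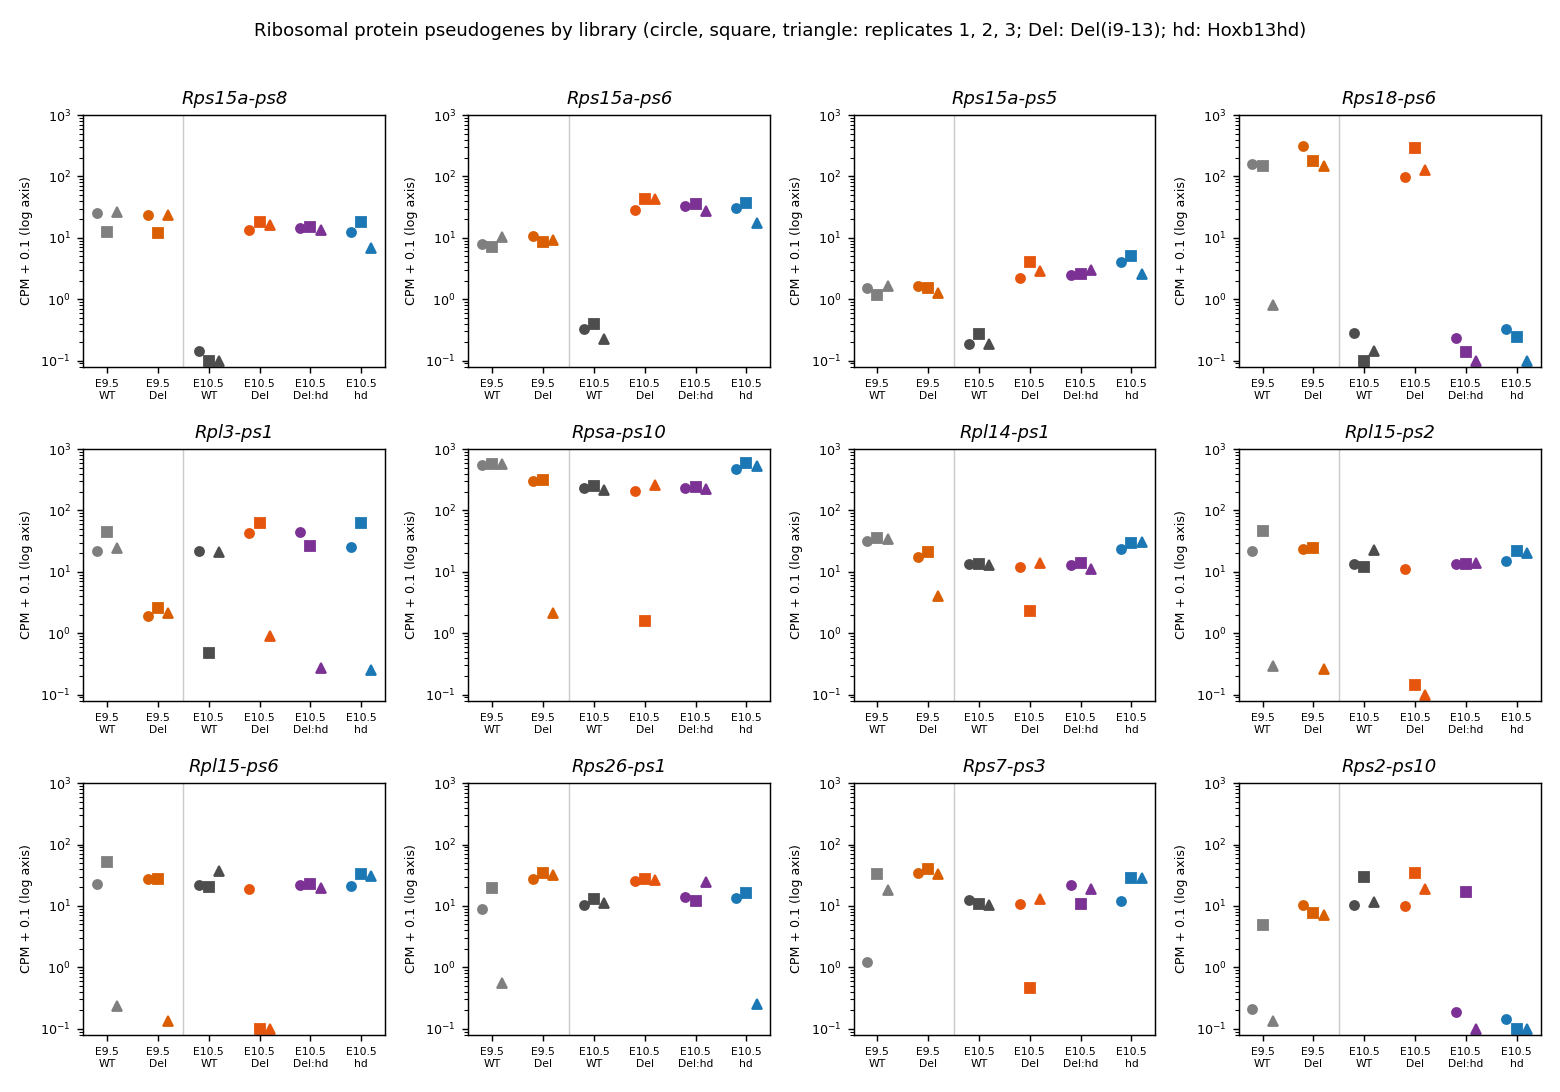
Level of 12 members in each of 18 libraries (vertical, CPM + 0.1 on a log axis; horizontal, the 6 groups, with a line between stages; symbols mark replicates 1, 2 and 3). The 3 Rps15a copies are low in E10.5 wild type alone. Rps18-ps6 is high at E10.5 in Del(i9-13) alone and drops in E9.5 wild type replicate 3. In each other panel 1 or more libraries drop within a group. Some of these panels also set a whole group apart, as Rps2-ps10 near 0 in Hoxb13hd and Rpl3-ps1 low in E9.5 Del(i9-13).

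Rpl3-ps1 was the member called at E9.5. It lies on the X chromosome (chrX:13202571-13203780, plus strand) and copies Rpl3, a core protein of the large subunit, with 2 mismatches over 1209 aligned bases (C57A and T786C, 99.8% identity), of which the first 120 bases hold 1, in capitals.
Rpl3: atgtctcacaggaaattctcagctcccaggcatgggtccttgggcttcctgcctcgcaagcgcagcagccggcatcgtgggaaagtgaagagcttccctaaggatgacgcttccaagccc
Rpl3-ps1: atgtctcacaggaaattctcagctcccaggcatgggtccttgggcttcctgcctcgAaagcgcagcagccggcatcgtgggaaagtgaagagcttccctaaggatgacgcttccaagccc
Its counts at E9.5 were 790, 1328 and 743 in wild type and 63, 74 and 66 in Del(i9-13), without overlap. The log2 fold change was -3.84 (SE 0.34, edgeR adjusted p 0.0173), where 0.362% of all genes and 0.268% as lower were called. Leaving out any 1 of the Del(i9-13) libraries took the adjusted p to between 0.076 and 0.138.

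At E10.5 the level of Rpl3-ps1 was split within every group. Counts were 482, 9 and 506 in wild type, then 1077, 1374 and 19 in the deletion group. With deletion and hd together they were 1017, 678 and 4, with Hoxb13hd alone 551, 1297 and 3. Each group held 1 library at 19 counts or fewer beside 2 at 482 or more, and no E10.5 comparison called it. The FPKM table gave the same split, at 0.0798 to 0.483 in those 4 libraries and 12.6 to 36.9 in the other 8. Xist, the RNA of the inactive X in females, was at 44046 and 46969 counts in E9.5 wild type replicates 2 and 3 and at 31 to 45 in the other 4 E9.5 libraries. Wild type replicate 1, low in Xist, had 790 counts of Rpl3-ps1. With Xist as a covariate the log2 difference was -3.38 (adjusted p 0.0381). At E10.5 the 4 libraries low in Rpl3-ps1 had 14156, 13030, 13981 and 286 counts of Xist. Libraries high in Rpl3-ps1 also included 3 high in Xist, Del(i9-13) replicate 1 (17445 counts of Xist), Del(i9-13):Hoxb13hd replicate 2 (13481) and Hoxb13hd replicate 1 (14970), beside 5 with 11 to 157 counts. Xist was thus high and low on both sides of the split. Parent Rpl3 was not called in any comparison (1134 to 1736 CPM over all libraries). No gene came close to its pattern over the 12 E10.5 libraries: the highest correlations were 0.756 for Rslcan18, 0.754 for Zfp770 and 0.747 for Phf19.

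Rpsa-ps10, the most abundant member, lay at distinct levels. It is a processed copy (chr3:150072658-150073542, minus strand) of Rpsa, a small subunit protein also known as the laminin receptor, with 6 mismatches and 99.3% identity. Positions 100 to 219 hold 2 of them (T210C and C219T), in capitals.
Rpsa: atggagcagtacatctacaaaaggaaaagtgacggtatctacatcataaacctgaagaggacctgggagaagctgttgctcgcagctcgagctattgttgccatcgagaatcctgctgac
Rpsa-ps10: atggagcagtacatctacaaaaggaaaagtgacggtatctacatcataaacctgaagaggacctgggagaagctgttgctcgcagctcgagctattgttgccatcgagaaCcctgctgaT
At E9.5 it had 19476, 16995 and 17301 counts in wild type and 10190, 9621 and 65 in Del(i9-13). At E10.5 it had 5183, 5813 and 5098 counts in wild type, 5116, 33 and 6262 in Del(i9-13), 5332, 6312 and 5195 in Del(i9-13):Hoxb13hd and 10022, 12325 and 10136 in Hoxb13hd. The Hoxb13hd libraries stood above all others of their stage, the E9.5 wild type libraries above those of Del(i9-13), and 1 Del(i9-13) library at each stage was near 0.

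Set against Rpsa, the same levels recurred at both stages. The share of Rpsa-ps10 in the counts of the pair was 30.6 to 31.6% in E9.5 wild type and 30.0 to 31.4% in E10.5 Hoxb13hd. It was 15.8 and 16.2% in E9.5 Del(i9-13) replicates 2 and 1, 13.9 to 14.6% in E10.5 wild type, 14.3 and 14.4% in E10.5 Del(i9-13) replicates 1 and 3, and 13.9 to 15.0% in Del(i9-13):Hoxb13hd. In E9.5 Del(i9-13) replicate 3 it was 0.121% and in E10.5 Del(i9-13) replicate 2 it was 0.0742%. The shares thus lay in 3 ranges, and 4 of the 6 groups kept to 1 of them. Between Hoxb13hd and wild type at E10.5 the ratio of group sums was 2.23 (exact 95% counting interval 2.19 to 2.27). The fit over all 12 E10.5 libraries did not call it (log2 1.19, SE 1.06, edgeR adjusted p 0.591), but a fit on the 6 libraries of the comparison did (log2 1.19, adjusted p 2.43e-04). Del(i9-13) replicate 2 enters the spread of the first fit and not of the second. How many of all genes the second fit called was not counted, here or for other members fitted on the compared groups. The E9.5 difference was not called (log2 -1.45, SE 1.53, adjusted p 0.762), and without Del(i9-13) replicate 3 it was (log2 -0.87, adjusted p 0.0013).

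Rpsa was higher where Rpsa-ps10 was lower. It held 1235 to 1239 CPM in E9.5 wild type and 1538, 1696 and 1695 CPM in Del(i9-13), a called log2 difference of 0.41 (SE 0.05, edgeR adjusted p 0.017), and was the only one of 82 ribosomal protein genes called there. At E10.5 its highest value, 2017 CPM, was in Del(i9-13) replicate 2, the library without Rpsa-ps10 reads. Rpsa with its 7 member copies together varied less than Rpsa alone, with a coefficient of variation of 5.74% against 16.0% at E9.5 and 10.2% against 17.1% at E10.5.

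**Figure D5:**
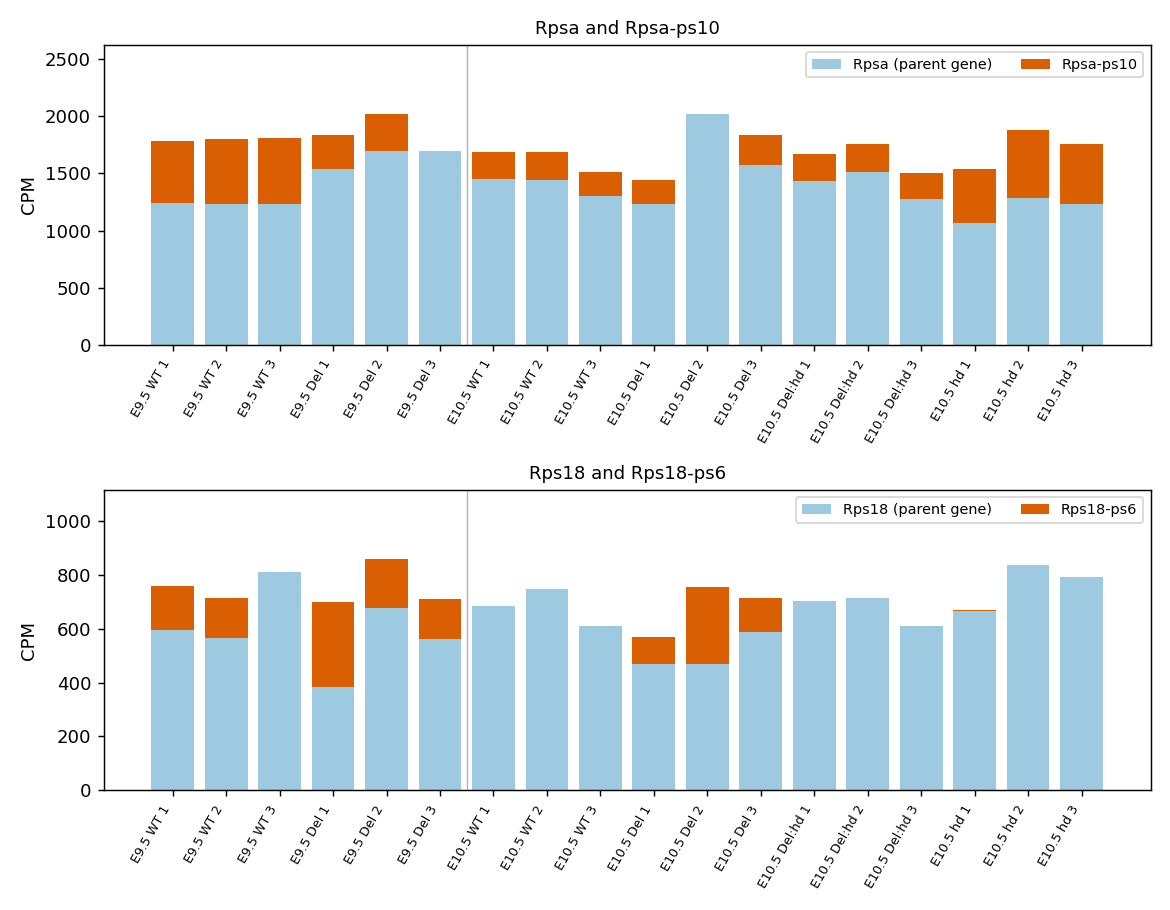
CPM of the parent gene (blue) with that of its pseudogene stacked on top (orange) in each of 18 libraries, for Rpsa with Rpsa-ps10 (top) and Rps18 with Rps18-ps6 (bottom). Rpsa is highest, at 2017 CPM, where Rpsa-ps10 is near 0, and Rps18 is lowest, at 383 CPM, where Rps18-ps6 is highest, at 314 CPM.

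Rpl14-ps1, a copy of the large subunit gene Rpl14 on chromosome 7 (chr7:45324965-45325617, plus strand, 99.4% identity), was high and low in the same libraries. It had 1121, 1045 and 1020 counts in E9.5 wild type and 593, 635 and 123 in Del(i9-13). At E10.5 it had 292, 309 and 304 counts in wild type, 298, 49 and 332 in Del(i9-13), 287, 353 and 253 in Del(i9-13):Hoxb13hd and 504, 608 and 598 in Hoxb13hd. The lowest library at each stage was again Del(i9-13) replicate 3 at E9.5 and replicate 2 at E10.5, and Hoxb13hd again stood above the other groups. Its ratio of group sums between Hoxb13hd and wild type was 2.09 (1.92 to 2.26). It was not called over the 12 libraries (log2 1.10, SE 0.46, edgeR adjusted p 0.215) and was called on the 6 libraries compared (adjusted p 0.0014). Rpsa-ps10 and Rpl14-ps1 lie on different chromosomes and have different parents.

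Both member copies of Rpl15, a large subunit gene, dropped out in the same 4 libraries. Rpl15-ps6 (chr15:52477617-52478228, minus strand, 99.7% identity to Rpl15) and Rpl15-ps2 (chr9:72060937-72061549, plus strand, 98.7%) are 98.7% identical to one another and share A156G. Positions 83 to 202 carry 2 differences from the parent in each, in capitals.
Rpl15: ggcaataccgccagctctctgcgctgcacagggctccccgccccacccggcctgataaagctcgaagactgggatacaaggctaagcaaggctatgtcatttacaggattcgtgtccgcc
Rpl15-ps2: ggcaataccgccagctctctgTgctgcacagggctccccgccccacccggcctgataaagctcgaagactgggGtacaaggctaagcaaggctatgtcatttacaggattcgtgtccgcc
Rpl15-ps6: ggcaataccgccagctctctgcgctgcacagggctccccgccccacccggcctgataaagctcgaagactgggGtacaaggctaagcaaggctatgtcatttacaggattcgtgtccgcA
Rpl15-ps6 had 820, 1552 and 4 counts in E9.5 wild type, 940, 813 and 1 in E9.5 Del(i9-13) and 471, 0 and 0 in E10.5 Del(i9-13). Rpl15-ps2 had 771, 1382 and 6, then 801, 743 and 5, and 274, 1 and 0 counts in those groups. In the other 3 E10.5 groups Rpl15-ps6 ran from 451 to 879 counts and Rpl15-ps2 from 285 to 537, with no library near 0. Neither was called in any comparison (Del(i9-13) minus wild type at E10.5: log2 -2.04, SE 1.23 and -2.09, SE 1.12). Without E10.5 Del(i9-13) replicate 1, the library that kept its reads, the log2 differences were -12.2 and -9.19 with edgeR adjusted p of 2.13e-04 and 2.20e-05. Rpl15 and the copies summed had a coefficient of variation of 5.58% at E9.5 against 9.0% for Rpl15 alone. Such a sum did not vary less in every case. Rps26 with Rps26-ps1 had 8.63% against 7.74% for Rps26 alone at E9.5, but 14.1% against 15.3% at E10.5. For Rps2 with its copies the fall was small, at 21.8% against 22.2% at E9.5 and 22.1% against 23% at E10.5.

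Drops within a group were also counted by a limit set after the data were seen, a 10-fold spread in CPM within a group whose highest library has 100 counts or more. By definition only abundant members could meet it, and it was met by 8 of the 20 members with 100 counts in a library (40%), and by 1.5% of 12835 genes at that level. Besides Rpsa-ps10, Rps18-ps6, Rpl3-ps1, Rpl15-ps6 and Rpl15-ps2, the 8 were Rps26-ps1, Rps7-ps3 and Rps2-ps10, all transcribed processed pseudogenes of small subunit genes. Rps26-ps1 (chromosome 8) had 311, 576 and 14 counts in E9.5 wild type and 938 to 1027 in Del(i9-13). At E10.5 it had 229, 299 and 264 counts in wild type, 634, 592 and 613 in Del(i9-13), 312, 306 and 565 in Del(i9-13):Hoxb13hd and 292, 334 and 3 in Hoxb13hd. The E10.5 Del(i9-13) libraries stood above those of all other groups of that stage. The fit over 12 libraries did not call their difference from wild type (log2 1.19, SE 0.79, edgeR adjusted p 0.726), and the fit on the 6 libraries compared did (log2 1.19, adjusted p 0.0013). Rps7-ps3 (X chromosome) had 40, 991 and 553 counts in E9.5 wild type, 1048 to 1199 in Del(i9-13), and at E10.5 265, 8 and 301 in Del(i9-13) beside 247 to 593 in the other groups. The libraries low in Rps7-ps3 had 45 and 32 counts of Xist, as low as in other libraries with high Rps7-ps3. None of these 3 was called in the fits over all libraries of a stage.

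Rps2-ps10 (chromosome 18) had reads in every library of some E10.5 groups and almost none in another. It had 224, 689 and 269 counts in E10.5 wild type, 245, 769 and 444 in Del(i9-13), 2, 428 and 0 in Del(i9-13):Hoxb13hd and 1, 0 and 0 in Hoxb13hd. At E9.5 it had 4, 143 and 1 counts in wild type and 350, 224 and 220 in Del(i9-13). All Hoxb13hd libraries were at 1 count or none, below every wild type library, with a ratio of wild type to Hoxb13hd sums of 1070 (exact 95% counting interval 192 to 42313). The fitted log2 difference of -9.60 (SE 2.85) was not called by edgeR over the 12 libraries (adjusted p 0.112), while DESeq2 gave an adjusted p of 6.05e-04 and edgeR on the 6 libraries compared 0.0124. Del(i9-13):Hoxb13hd was itself split, with replicate 2 alone holding reads. Its parent Rps2 was called among any difference of the 4 E10.5 genotypes (adjusted p 0.037) and had a log2 difference of 0.55 (SE 0.14, adjusted p 0.0517) in Hoxb13hd minus wild type.

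By fixed limits, a group was taken as on where each library had 10 or more counts and off where each had 3 or fewer. No member went from on to off between the E9.5 groups, as did 0.0251% of all genes with a summed count of 50 or more. At E10.5 Rps15a-ps8, Rps18-ps6 and Rps2-ps10 did (3.8% of members), as did 0.311% of those genes and 9 of 120 other genes ending in -ps (7.5%). Within a group, 23 members (29.1%) had a library at 10 or more counts beside one at 3 or fewer, as did 10.1% of all such genes and 37 of the 120 other -ps genes (30.8%). Of the 23, the 5 with 100 counts in a library were Rpl15-ps2, Rpl15-ps6, Rpl3-ps1, Rps2-ps10 and Rps26-ps1. The rest were Rpl13a-ps1, Rpl18-ps2, Rpl19-ps3, Rpl19-ps7, Rpl19-ps11, Rpl3-ps2, Rpl39-ps, Rpl7-ps9, Rps10-ps2, Rps12-ps26, Rps13-ps4, Rps15a-ps4, Rps18-ps4, Rps18-ps5, Rps2-ps5, Rps2-ps6, Rps2-ps8 and Rpsa-ps7, none of which had more than 46 counts in a library.

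In the fit over all E10.5 libraries, edgeR called no member between Del(i9-13):Hoxb13hd and Hoxb13hd. Of all genes, 0.959% were called there (0.674% as higher, 0.285% as lower). At an unadjusted p of 0.05 in edgeR's test, 3 of 25 members passed, as did 2616 of all 17202 genes tested. DESeq2 called 2 members, Rps2-ps10 (log2 8.31, adjusted p 0.0103) and Rpl21-ps4 (log2 2.31, adjusted p 0.0352). Fitted on the compared groups alone, edgeR called Rpsa-ps10 (log2 -1.16, adjusted p 2.26e-04) and Rpl14-ps1 (log2 -1.16, adjusted p 0.0033). Both were lower in Del(i9-13):Hoxb13hd, without overlap in counts. Without the low-count filter edgeR called Rpl21-ps4 (log2 2.26, adjusted p 0.0437). Rpl21-ps4 had 0, 5 and 3 counts in Hoxb13hd, 14, 15 and 17 in Del(i9-13):Hoxb13hd and 11, 13 and 21 in wild type, with Hoxb13hd below both at low counts. In the authors' FPKM it was at 0 in all 18 libraries, so that table shows no such difference. It was the uncalled member nearest the threshold in Hoxb13hd minus wild type (log2 -2.26, SE 0.62, edgeR adjusted p 0.0682), and passed without the low-count filter (0.0336). Beside the members, of the other genes ending in -ps 65 were tested at E10.5 and 4, 1 and 7 were called against wild type in Del(i9-13), Del(i9-13):Hoxb13hd and Hoxb13hd. In these comparisons 7, 4 and 14 of the 82 ribosomal protein genes tested passed an unadjusted edgeR p of 0.05. All genes passing numbered 1570, 2156 and 3510 of 17202. After adjustment, 0, 0 and 4 of the 82 were called. The 4 were higher in Hoxb13hd, namely Rpl28 (log2 0.40, SE 0.08), Rps26 (0.45, SE 0.10), Rps29 (0.34, SE 0.08) and Rps15 (0.37, SE 0.09), with edgeR adjusted p of 0.0211 to 0.048. Their copies tested there, Rpl28-ps1 (log2 0.04, SE 0.34) and Rps26-ps1 (-0.20, SE 0.81), were not called.

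Levels of many members differed by stage, which coincides with library type, and CPM were scaled within each stage apart. A higher mean level at E9.5 was found in 60 of all 79 members and at E10.5 in 19, with a median of mean levels of 0.392 CPM and 0.182 CPM. More than a 5-fold difference was seen for 19 members toward E9.5 and 3 toward E10.5. The same shares over all genes were not counted, so whether this is particular to the members was not tested. Rps16-ps2, a copy of a small subunit gene, averaged 4.81 CPM at E9.5 and 0.29 CPM at E10.5, and Rps19-ps7 averaged 2.69 and 0.0328 CPM. Rpsa-ps9 went the other way, at 0.409 and 2.91 CPM. Summed over the 67 members outside the 12 most abundant, levels were 32.4 to 65.9 CPM in E9.5 libraries and 18 to 25.5 CPM in E10.5 libraries, without overlap and with no test, as the stages were prepared differently.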

How the data were processed

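The deposited count table holds whole-number read counts per Ensembl gene, and the deposited FPKM table holds values computed by the authors with Cufflinks 2.2.1. The submitters' processing notes also name cutadapt 1.18, STAR 2.7.10a and the mm10 build. The version, strand setting, annotation and treatment of multiply matching reads in counting are not stated by the sources used here. Every column was matched to a sample by its name, and 0 were left unused. Starts in the FPKM table count from 0 and were raised by 1, after which all 79 members had the coordinates of GENCODE M21.

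Counts were analysed with edgeR 4.0.16 in R 4.3.3 (filterByExpr with minimum count 10 and minimum total 15, TMM scaling, robust quasi-likelihood fit over all genes, separately for 6 E9.5 and 12 E10.5 libraries, and for the wild type and Del(i9-13) libraries of both stages together). The test was checked on simulated data with the same spread for every gene and changes smaller than those of the called members. That check does not cover members near 0 in a group or split within it. SE of a log2 fold change was derived as its absolute value divided by the square root of edgeR's F statistic. It is a rough guide where a group is near 0 counts. CPM use TMM-scaled library sizes, with the scaling set separately within each stage. Members were aligned to the coding sequence of the parent, found by removing -ps from the symbol, with Biopython 1.88 on GENCODE M21 transcripts. Alternatives were RLE scaling, no filter, 1 CPM in 3 libraries, DESeq2 1.42.0, limma 3.58.1 on log2(FPKM + 0.1) or log2(FPKM + 1), a replicate block, Xist as a covariate, the compared groups alone, and leaving out each library. Named were all members called, switching or mixed within a group, those of highest level, and their parents. Gene lists and members were chosen with earlier results of these data known.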

Additional observations from a re-analysis of the deposited data

Results flagged for a closer look

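For 3 members the effect of the deletion differed between groups by a test of the difference itself (edgeR's quasi-likelihood test, called at an adjusted p of 0.05). Between stages the deletion effect at E10.5 exceeded that at E9.5 by 9.831 on the log2 scale for Rps15a-ps8, 7.241 for Rps15a-ps6 and 4.592 for Rps15a-ps5. With and without hd at E10.5 it differed by -9.44, -7.239 and -5.169 in the same order. All 6 values go back to 3 E10.5 wild type libraries with 0 to 7 counts, and for Rps15a-ps6 and Rps15a-ps5 they were not seen in FPKM. Stage and library type cannot be told apart.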

How the results depend on the processing

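Of 297 values of called members under alternatives, 284 kept direction and side of the threshold, 9 lost the call and 4 reversed. The 4 were Rps15a-ps5 under limma on log2(FPKM + 0.1) without a filter, at -0.01682 in Del(i9-13) minus wild type, -0.9095 in Hoxb13hd minus wild type, 1.062 for the interaction and -0.403 for the difference between stages. Under limma on FPKM (pseudocount 0.1 or 1, with the filter or without) the members called against E10.5 wild type numbered 2 in Del(i9-13), 1 in Del(i9-13):Hoxb13hd, 1 in Hoxb13hd, 2 for any difference (with the filter) and 1 between stages, with Rps15a-ps6 and Rps15a-ps5 not passing or not tested. Without the low-count filter, 2 members were called at E9.5, 1 in Del(i9-13):Hoxb13hd minus Hoxb13hd and 2 in Del(i9-13) minus Del(i9-13):Hoxb13hd (also 2 under limma without the filter). Beside Rpl3-ps1, the E9.5 call was Rpsa-ps4, higher in Del(i9-13) (log2 4.51, edgeR adjusted p 0.00249). Rpsa-ps4 had 82 counts over all 18 libraries. On the compared groups alone, 6 members were called in Hoxb13hd minus wild type and 2 in Del(i9-13):Hoxb13hd minus Hoxb13hd, as were 2 there by DESeq2. Shares of all genes called in these alternative runs were not counted. A rise among the members thus cannot be told from a general rise in calls. The cause was not tested. RLE scaling and the 1 CPM filter moved no count by over 1.5 times.

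Leaving out 1 library gave 0 to 2 members called at E9.5, 1 to 4 in Del(i9-13) minus Del(i9-13):Hoxb13hd, 3 to 6 for the interaction, 0 to 1 switching at E9.5 and 3 to 5 at E10.5. With on at 5 counts, 1 member switched at E9.5 and 6 at E10.5, and 51 were mixed within a group, against 5 with on at 20 counts, 7 with off at 1 count and 8 by the 10-fold spread, chosen after seeing the data.

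Replicate numbers did not clearly pair the libraries, judged by correlating each library's deviations from its group mean over genes. At E9.5 these deviations correlated at 0.029 to 0.153 over 3 same-numbered pairs (median 0.104, against -0.0498 for unlike numbers). At E10.5 they correlated at -0.317 to 0.193 over 18 pairs (median 0.0364, against 0.0234). By this measure 3 of 6 and 3 of 12 libraries correlated best with their own number. With a replicate block, members called numbered 1 at E9.5, 4, 3 and 3 against E10.5 wild type, 0, 1, 4 and 3 in the other E10.5 tests and 3 between stages, the same counts as without it. Depth limits the 34 members under 100 counts in all.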
